A study of Mus musculus with 6 samples.

Results

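The 10 genes described here encode transcription factors that direct the megakaryocyte and erythroid fates of blood, namely *Gata1*, *Gata2*, *Zfpm1*, *Tal1*, *Lyl1*, *Klf1*, *Fli1*, *Runx1*, *Nfe2* and *Gfi1b*. They were taken by symbol from the 34573 genes of a table of read counts, all 10 were found there, and all 10 were among the 14004 genes with enough reads for a test. The question was how these regulators differ in hematopoietic stem cells (HSCs) that lack *Rpl22*, which encodes a protein of the large ribosomal subunit that also binds RNA. Polyadenylated RNA was sequenced from HSCs sorted out of adult mouse bone marrow, in 3 samples from *Rpl22*-/- mice and 3 from *Rpl22*+/+ mice, each sequenced as its own library. The *Rpl22*-/- mice carry the loss in the germline, so that cells around the HSCs lacked the gene as well. Both genotypes were young adults backcrossed to the C57BL/6 strain and the labels name no treatment. HSCs were gated as negative for mature lineage markers and CD48 and positive for CD150. Elsewhere in the study HSCs were also required to bear Sca-1 and c-Kit, which the labels do not state for these samples. The labels do not say whether each sample came from its own animal or from pooled animals, so the p-values measure the spread between these samples.

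Megakaryocytes, which shed platelets, and erythroblasts, which become red cells, share precursors and a set of regulators. GATA2 acts in HSCs and early progenitors, and GATA1 takes over its sites as cells commit to either fate, in most cases together with its cofactor FOG-1, the product of *Zfpm1*. GATA factors work on DNA beside TAL1 or LYL1 in complexes bridged by LMO2 and LDB1. FLI1, RUNX1 and NF-E2 drive megakaryocyte genes, GFI1B is a repressor needed in both fates, and KLF1 drives erythroid genes and opposes FLI1.

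Reads counted on genes came to 9321123 for the smallest and 13385850 for the largest library, the smallest being *Rpl22*+/+ replicate 3. *Rpl22* itself kept 449 to 546 reads where *Rpl22*+/+ libraries held 5031 to 7001. Replicates of a genotype differed by more than sampling noise, and no library was a copy of another. Among 14004 genes, 5.57% had an adjusted p below 0.05 in either direction, 3.28% being higher and 2.29% lower in *Rpl22*-/- HSCs (edgeR, quasi-likelihood, with the Benjamini-Hochberg method over all of them). Of these calls 58.8% were higher in *Rpl22*-/- HSCs, against 43.4% when libraries were scaled by size alone. All 15 genes of a list of HSC markers had enough reads for a test. Of these, 11 had negative and 4, *Slamf1* among them, positive log2 fold changes, with a median of -0.105. *Slamf1*, which encodes the CD150 of the gate, ranged over 45.4 to 63.5 CPM in *Rpl22*-/- HSCs and 40.6 to 49.1 CPM in *Rpl22*+/+ HSCs. CPM (counts scaled to a common library size) are TMM-scaled, by edgeR's correction for size and composition, and sets of 3 values follow replicates 1, 2 and 3.

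Of the 10 factors, *Gata2* and *Zfpm1* rose in *Rpl22*-/- HSCs, by ratios of 1.31 and 1.34, and none fell by that test or at an unadjusted p below 0.05, which 0 reached with a negative change. These 2 of 10 stand beside the 3.28% of all genes that passed in that direction. Another 3 factors, *Fli1*, *Gfi1b* and *Gata1*, had log2 fold changes of 0.46, 0.42 and 0.29 with adjusted p-values of 0.0524, 0.0675 and 0.0743, just outside the threshold. The other 5 were spread from -0.11 to 0.16. In all, 8 factors had positive and 2 negative log2 fold changes, with a median of 0.226, beside -0.0068 for the 14004 genes. An unadjusted p below 0.05 was reached by 5 of the 10, all with positive changes, while 11.6% of all genes reached it in that direction. For 3 of the 10 every *Rpl22*-/- library lay above every *Rpl22*+/+ library, which was so for 13.3% of all genes. Without *Rpl22*-/- replicate 1 the count of factors that passed was 4, without *Rpl22*-/- replicate 2 it was 1, and without *Rpl22*-/- replicate 3 or *Rpl22*+/+ replicate 1, 2 or 3 it was 0, where 12.1%, 2.59%, 0.892%, 1.44%, 1.82% and 1.69% of all genes tested passed in either direction. In bulk RNA, a change in the number of cells that express a gene and a change in the RNA of each cell cannot be told apart.

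**Figure D1:**
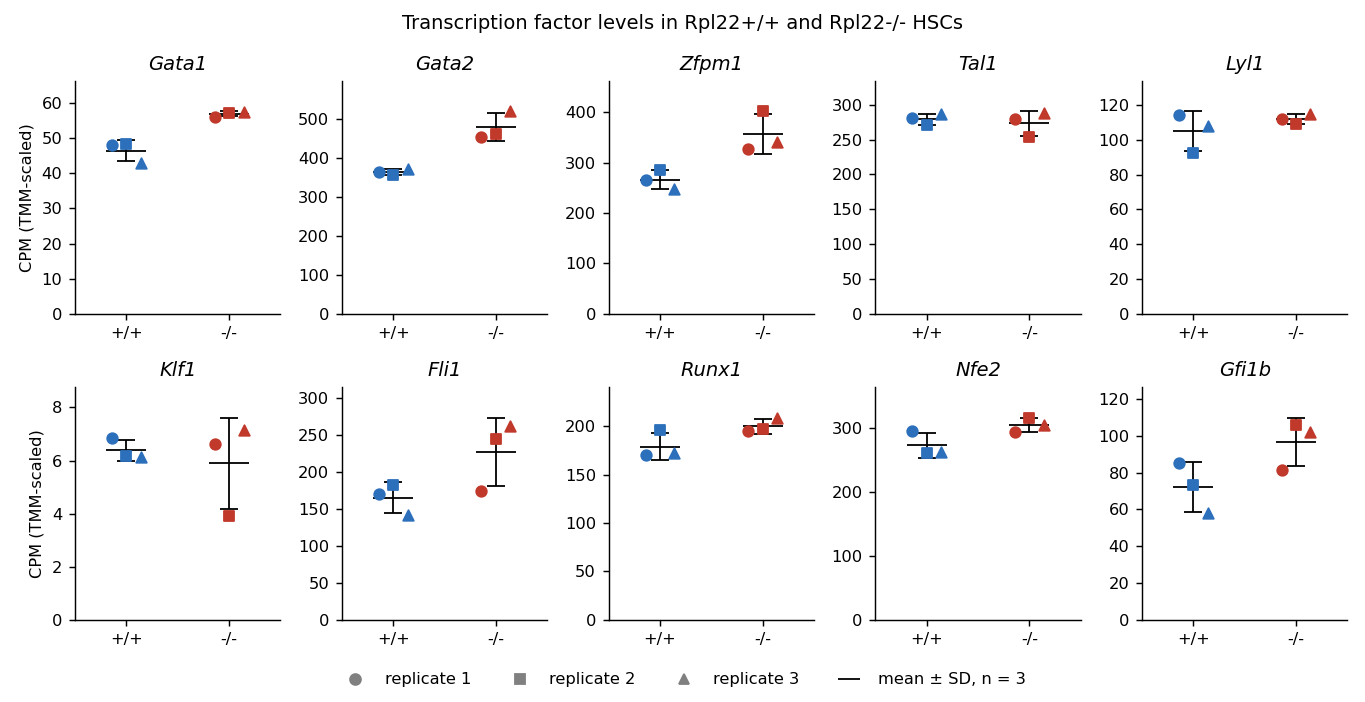
Level of each of the 10 factors in CPM (TMM-scaled, linear axis from 0) in the 3 *Rpl22*+/+ (blue, +/+) and 3 *Rpl22*-/- (red, -/-) libraries, with replicates 1, 2 and 3 as circles, squares and triangles and the mean with its SD in black. The genotypes are apart without overlap for *Gata1*, *Gata2* and *Zfpm1*, while *Rpl22*-/- replicate 1 lies among the *Rpl22*+/+ libraries for *Fli1* and *Gfi1b*.

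Levels are compared between genes per kilobase of exon. In *Rpl22*+/+ HSCs the highest of the 10 was *Nfe2* with 91.3 ± 6.51 CPM per kilobase (SD, n = 3), followed by *Zfpm1* (76.1 ± 5.42), *Gata2* (67.5 ± 1.37), *Tal1* (63.7 ± 1.79), *Lyl1* (58.2 ± 6.30), *Fli1* (47.3 ± 5.95) and *Gfi1b* (39.5 ± 7.49). *Gata1* (19.1 ± 1.26), *Runx1* (14.9 ± 1.19) and *Klf1* (4.17 ± 0.256) were lower. Among neighbours in that order, *Tal1* and *Lyl1*, *Lyl1* and *Fli1*, and *Fli1* and *Gfi1b* lay within the sum of their SDs of each other, and the other pairs did not. The median over 13360 genes with a known length was 7.98, and *Klf1* was the sole member under it, while *Nfe2* exceeded 97.4% of those genes. The exon length of each gene counts all its transcripts together. For *Runx1*, and for any other gene with several transcripts, the level per kilobase is thus a low estimate. In the *Rpl22*-/- libraries *Zfpm1* (102 ± 11.4) stood level with *Nfe2* (102 ± 3.71), and *Gata2* (88.7 ± 6.61) came next.

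*Gata2* lies on chromosome 6 from 88193891 to 88207032 (GRCm38, the assembly also named mm10; all positions are for that build) and encodes the GATA factor of HSCs and early progenitors. It measured 454, 462 and 520 CPM in *Rpl22*-/- HSCs, against 364, 357 and 372 CPM in *Rpl22*+/+ HSCs. The SD of the *Rpl22*+/+ libraries was 2.03% of their mean, and the lowest *Rpl22*-/- library was well above the highest of them. The means were 479 ± 35.7 and 364 ± 7.41 CPM (SD, n = 3), and the log2 fold change was 0.39 (standard error 0.0875, 95% interval 0.21 to 0.58, adjusted p = 0.0190 in the edgeR fit), a ratio of 1.31. *Gata2* passed in 10 of 14 other ways of processing and was higher in all 14. It missed the threshold without *Rpl22*-/- replicate 3 (adjusted p = 0.0892) and without *Rpl22*+/+ replicate 1, 2 or 3 (0.0947, 0.0915 and 0.0638), with log2 fold changes from 0.33 to 0.41.

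*Zfpm1*, on chromosome 8 from 122282141 to 122337251, encodes FOG-1, a zinc finger cofactor that GATA factors recruit to DNA. It measured 327, 402 and 342 CPM in *Rpl22*-/- HSCs, against 265, 286 and 248 CPM in *Rpl22*+/+ HSCs. The highest value was that of *Rpl22*-/- replicate 2, and the genotypes did not overlap. The estimate on the log2 scale was 0.42 (standard error 0.0972, 95% interval 0.22 to 0.63, adjusted p = 0.0213 in the edgeR fit), a ratio of 1.34. *Zfpm1* was higher in all 14 other ways of processing and passed in 8. It did not pass once trends on length and GC content were removed (0.28, adjusted p = 0.131) or without *Rpl22*-/- replicate 2 (0.33, 0.0623). It also missed without *Rpl22*-/- replicate 3 (0.45, 0.0667) and without *Rpl22*+/+ replicate 1 (0.42, 0.0987), 2 (0.48, 0.0504) or 3 (0.37, 0.101). At 66.8% GC, the sequence of its longest transcript was the richest in GC of the 10.

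*Gata1*, on the X chromosome from 7959260 to 7978071, encodes the GATA factor of committed erythroid and megakaryocyte cells. It measured 56.2, 57.3 and 57.4 CPM in *Rpl22*-/- HSCs, against 48.2, 48.3 and 43.0 CPM in *Rpl22*+/+ HSCs. The SD of the *Rpl22*-/- libraries was 1.21% of their mean, and each of them lay above every *Rpl22*+/+ library. The log2 difference of 0.29 (standard error 0.0921, 95% interval 0.10 to 0.49) had an unadjusted p of 0.00620 and an adjusted p of 0.0743 in the edgeR fit. It was positive in all 14 other ways of processing, from 0.19 to 0.32, and passed in 0 of them. *Gata1* was thus the one factor of the 10 with separated genotypes whose difference did not pass.

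The promoters of the 2 genes that rose are shown with those of *Gfi1b* and *Klf1*, the members whose letters of a GATA site lie nearest the start. Sequences are the bases before the start of transcription in RefSeq (GRCm38.p6), without any base of an annotated exon, so that *Klf1* ends 55 bases before it. RefSeq gives *Gata2* another, later start, which is not shown because the bases before it all lie in annotated exons. Capitals mark the letters AGATAA, the related form TGATAA, and the same with a closing G (AGATAG, or else TGATAG), read on both strands.
Gata2 (chr6:88193641-88193890, forward strand): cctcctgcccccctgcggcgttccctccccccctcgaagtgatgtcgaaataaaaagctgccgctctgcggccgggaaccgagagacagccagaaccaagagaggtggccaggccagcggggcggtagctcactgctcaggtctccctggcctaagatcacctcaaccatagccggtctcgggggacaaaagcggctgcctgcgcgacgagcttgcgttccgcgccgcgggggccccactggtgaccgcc
Zfpm1 (chr8:122281891-122282140, forward strand): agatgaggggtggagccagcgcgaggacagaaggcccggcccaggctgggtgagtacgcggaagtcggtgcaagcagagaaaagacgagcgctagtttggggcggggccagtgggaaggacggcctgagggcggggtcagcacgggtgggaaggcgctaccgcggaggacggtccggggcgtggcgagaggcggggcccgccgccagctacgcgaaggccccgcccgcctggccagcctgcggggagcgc
Gfi1b (chr2:28621983-28622232, reverse strand): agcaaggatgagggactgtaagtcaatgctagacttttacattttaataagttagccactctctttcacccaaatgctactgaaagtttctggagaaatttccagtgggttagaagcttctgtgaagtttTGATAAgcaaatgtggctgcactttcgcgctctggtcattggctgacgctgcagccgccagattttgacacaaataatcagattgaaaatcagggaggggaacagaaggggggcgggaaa
Klf1 (chr8:84901732-84901927, forward strand): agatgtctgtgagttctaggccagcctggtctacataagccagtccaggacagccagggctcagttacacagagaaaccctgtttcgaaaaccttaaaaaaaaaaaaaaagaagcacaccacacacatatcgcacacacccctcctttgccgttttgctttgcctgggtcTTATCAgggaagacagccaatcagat
In windows from 250 bases before to 50 after the start, RefSeq's table had 11 promoters for 8 of the 10 genes, and 3 of these 11 (27.3%), for *Gfi1b*, *Tal1* and *Klf1*, held such letters. Of 32851 promoters of the same length in the mouse genome 29.8% did. The letters began 120 bases before the start in *Gfi1b*, 205 before in *Tal1* and 80 before in *Klf1*, and none were found in the windows of *Gata1*, *Gata2*, *Zfpm1*, *Lyl1* or *Runx1*. The share among the members was thus near that of all promoters, and a match of letters is not a measured site.

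*Tal1* and *Lyl1* encode basic helix-loop-helix proteins that bind E-boxes as dimers with E proteins and overlap in function in adult HSCs. *Tal1*, on chromosome 4 from 115056426 to 115071755, measured 279, 254 and 288 CPM in *Rpl22*-/- HSCs, against 281, 271 and 286 CPM in *Rpl22*+/+ HSCs. Its log2 fold change was -0.03 with a 95% interval from -0.21 to 0.15 (adjusted p = 0.878 in the edgeR fit), which bounds the ratio between 0.865 and 1.11. *Lyl1*, on chromosome 8 from 84701457 to 84704715, measured 112, 109 and 115 CPM in *Rpl22*-/- HSCs, against 114, 92.1 and 108 CPM in *Rpl22*+/+ HSCs. Its log2 fold change was 0.10 (95% interval -0.09 to 0.29, adjusted p = 0.562), and it was -0.06 once trends on length and GC content were removed. The libraries of the genotypes overlapped for both genes, and neither passed in any of the 14 other ways of processing. The annotated exons of *Lyl1* share 4 bases with those of *Nfix* on the other strand, 0.2% of its length.

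**Figure D2:**
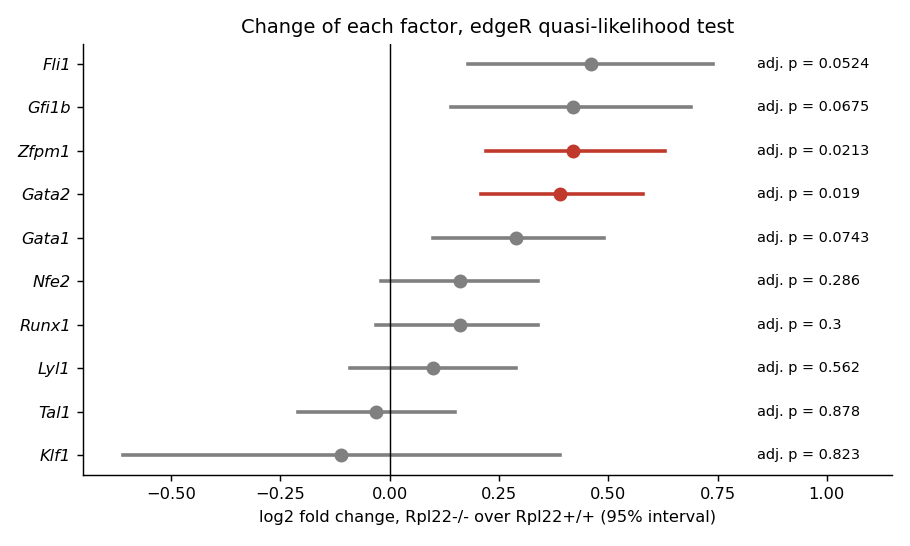
Log2 fold change of each factor, *Rpl22*-/- over *Rpl22*+/+, as points with 95% intervals from edgeR's quasi-likelihood test on 3 libraries per genotype, with the adjusted p at the right and the factors past the threshold in red. The intervals of *Fli1*, *Gfi1b*, *Zfpm1*, *Gata2* and *Gata1* lie above 0, and the widest, from -0.61 to 0.39, is that of *Klf1*.

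*Fli1* encodes an ETS factor that activates platelet glycoprotein genes and lies on chromosome 9 from 32422204 to 32542861. It measured 174, 244 and 262 CPM in *Rpl22*-/- HSCs, against 170, 182 and 142 CPM in *Rpl22*+/+ HSCs. Replicates 2 and 3 of *Rpl22*-/- were above all others, while *Rpl22*-/- replicate 1 lay among the *Rpl22*+/+ libraries. The log2 fold change was 0.46 (standard error 0.131, 95% interval 0.18 to 0.74, adjusted p = 0.0524 in the edgeR fit), the highest estimate of the 10. *Fli1* passed in 6 of 14 other ways of processing, among them DESeq2 (0.46, adjusted p = 0.0158), low counts left in (0.46, 9.97e-05), a term for replicate number (0.44, 0.0351) and removal of length and GC trends (0.48, 0.0461). Without *Rpl22*-/- replicate 1 it was 0.62 (adjusted p = 0.00125). The adjusted p over all 14 ran up to 0.223.

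*Runx1* and *Nfe2* complete the megakaryocyte group. *Runx1*, on chromosome 16 from 92601466 to 92826149, encodes a factor needed for HSCs to arise and for megakaryocytes to mature. It measured 195, 197 and 209 CPM in *Rpl22*-/- HSCs, against 170, 196 and 172 CPM in *Rpl22*+/+ HSCs, a log2 fold change of 0.16 (95% interval -0.03 to 0.34, adjusted p = 0.30 in the edgeR fit). *Nfe2*, on chromosome 15 from 103248212 to 103258403, encodes the blood-specific subunit of NF-E2, which is required for platelet release. It measured 294, 316 and 305 CPM in *Rpl22*-/- HSCs, against 295, 260 and 263 CPM in *Rpl22*+/+ HSCs, a log2 fold change of 0.16 (95% interval -0.02 to 0.34, adjusted p = 0.286). For each of these genes 1 *Rpl22*+/+ library, replicate 2 for *Runx1* and replicate 1 for *Nfe2*, reached the *Rpl22*-/- range. Both were positive in all 14 other ways of processing and passed in 0 of them.

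*Gfi1b*, on chromosome 2 from 28609450 to 28621982, encodes a zinc finger repressor that recruits the histone demethylase LSD1. It measured 81.4, 106 and 102 CPM in *Rpl22*-/- HSCs, against 85.3, 73.4 and 58.0 CPM in *Rpl22*+/+ HSCs. The overlap came from *Rpl22*-/- replicate 1, which was under *Rpl22*+/+ replicate 1. The log2 fold change was 0.42 (standard error 0.128, 95% interval 0.14 to 0.69, adjusted p = 0.0675 in the edgeR fit). It passed with DESeq2 (0.42, adjusted p = 0.0386), when low counts were not filtered (0.42, 0.000984) and without *Rpl22*-/- replicate 1 (0.53, 0.00985). With length and GC trends removed it was 0.28. The adjusted p over the 14 other ways ran up to 0.254.

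*Klf1*, on chromosome 8 from 84901928 to 84905291, encodes the factor that activates adult globin and red cell membrane genes. It had few reads, 85, 47 and 94 in *Rpl22*-/- HSCs, against 89, 77 and 59 in *Rpl22*+/+ HSCs. In CPM these were 6.62, 3.91 and 7.14 against 6.84, 6.18 and 6.14, so that *Rpl22*-/- replicate 2 was the lowest and the other 5 libraries lay close together. The log2 fold change was -0.11 with a 95% interval from -0.61 to 0.39 (adjusted p = 0.823 in the edgeR fit), and it was 0.11 without *Rpl22*-/- replicate 2. At this depth a ratio anywhere between 0.653 and 1.31 was within the interval.

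**Figure D3:**
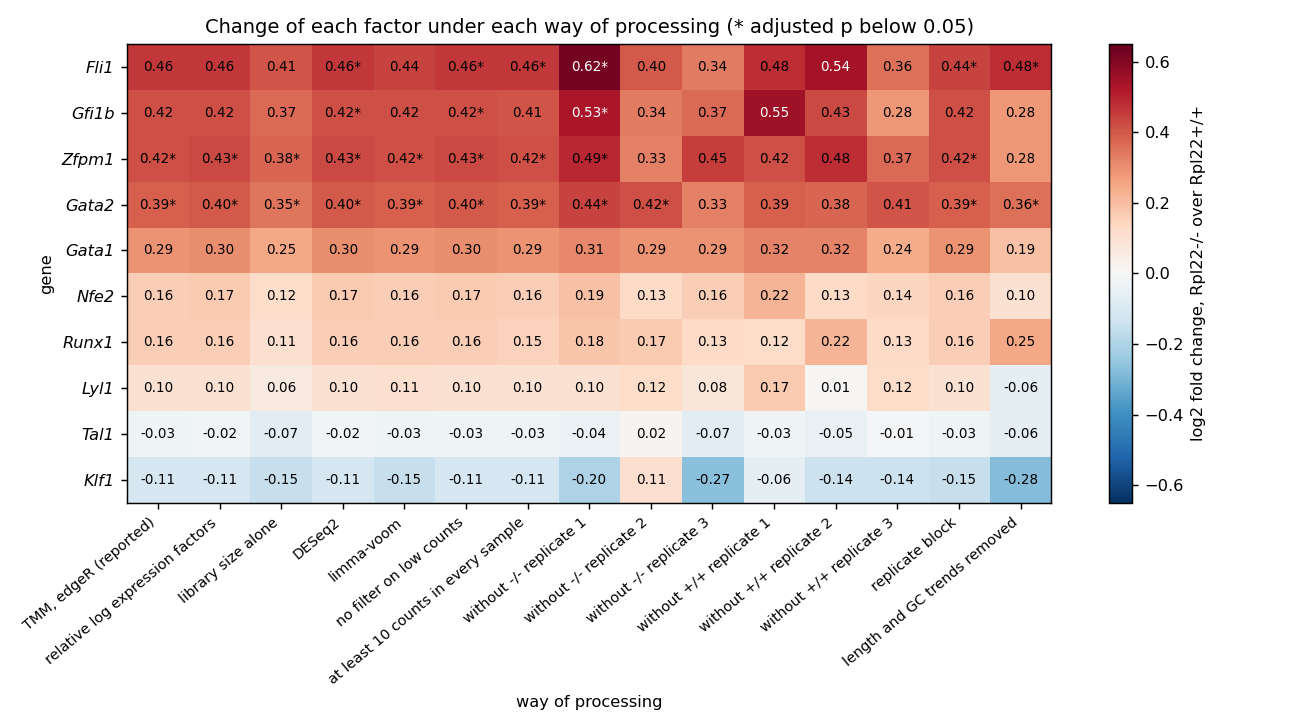
Log2 fold change of each factor (rows), *Rpl22*-/- over *Rpl22*+/+, under the reported test and 14 other ways of processing (columns), with an asterisk where the adjusted p is below 0.05. *Gata2* carries an asterisk in 10 of the 14 other columns, *Zfpm1* in 8, *Fli1* in 6 and *Gfi1b* in 3, and *Tal1*, *Lyl1* and *Klf1* each change sign in 1.

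Ratios of reads per kilobase within a library do not depend on scaling between libraries. They were formed after the values were seen and carry no test. The ratio of *Gata2* to *Tal1* was 1.32, 1.48 and 1.47 in *Rpl22*-/- HSCs, against 1.05, 1.07 and 1.05 in *Rpl22*+/+ HSCs. The ratio of *Zfpm1* to *Tal1* ran from 1.47 to 1.98 against 1.08 to 1.32, and that of *Gata1* to *Tal1* from 0.359 to 0.405 against 0.270 to 0.321. These 3 ratios were thus higher in every *Rpl22*-/- library. The ratio of *Gata2* to *Gata1*, which falls as GATA1 replaces GATA2 in committed cells, was 3.65, 3.64 and 4.09 in *Rpl22*-/- HSCs, against 3.41, 3.34 and 3.91 in *Rpl22*+/+ HSCs, so that the genotypes overlapped. *Fli1* and *Gfi1b* set against *Tal1* overlapped as well, since *Rpl22*-/- replicate 1, at 0.786 and 0.699, lay within the *Rpl22*+/+ ranges of 0.623 to 0.846 and 0.485 to 0.727.

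The proteins that sit in complexes with these factors were followed as a list of 24 genes, all tested. *Ssbp4*, a relative of the proteins that stabilize LDB1, rose, and it was the one call among the 24 (4.17%, against 5.57% of all genes in either direction). It measured 74.5, 96.6 and 73.8 CPM in *Rpl22*-/- HSCs, against 57.6, 57.3 and 57.7 CPM in *Rpl22*+/+ HSCs, or 0.50 as log2 fold change (standard error 0.105, adjusted p = 0.0144 in the edgeR fit). The median log2 fold change over the list was 0.046. The bridging proteins *Ldb1* and *Lmo2* had log2 fold changes of 0.05 and 0.12 (adjusted p = 0.773 and 0.483), and *Cbfb*, the partner of RUNX1, had -0.10 (0.591); these 3 were chosen after their values were seen. Without *Rpl22*+/+ replicate 1 or 3, or with length and GC trends removed, 0 of the 24 passed. In those fits 1.44%, 1.69% and 3.56% of all genes passed in either direction. With *Rpl22*-/- replicate 1 left out or with no filter on low counts 3 did, where 12.1% and 6.89% of all genes passed.

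Among 35 related or opposing factors, 31 were tested, of which 3 rose and 1 fell. *Runx3*, a Runt factor like *Runx1*, measured 88.5, 109 and 106 CPM in *Rpl22*-/- HSCs, against 60.3, 78.2 and 53.9 CPM in *Rpl22*+/+ HSCs (log2 fold change 0.65, standard error 0.123, adjusted p = 0.00907 in the edgeR fit). *Zbtb7a*, which encodes a repressor needed for red cell maturation, and *E2f4*, a regulator of the cell cycle, rose by 0.38 and 0.43 as log2 ratios (adjusted p = 0.0208 and 0.0371). *Ikzf2*, which encodes the zinc finger protein Helios, measured 75.0, 58.6 and 66.3 CPM against 87.6, 89.4 and 103 CPM and fell by 0.48 on the log2 scale (adjusted p = 0.0153). The 4 calls are 12.9% of the 31, beside 5.57% of all genes in either direction, and the median was 0.112. Without *Rpl22*-/- replicate 3 the count was 0, and without *Rpl22*+/+ replicate 1, 2 or 3 it was 1, 2 and 1, where 0.892%, 1.44%, 1.82% and 1.69% of all genes passed. Without *Rpl22*-/- replicate 1 or 2 it was 5 and 3, where 12.1% and 2.59% of all genes passed.

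Genes of megakaryocytes and platelets that these factors are known to drive were followed next. Of 32 listed, 30 were tested, 15 of these rose and none fell, with a median log2 fold change of 0.414. Over all genes tested, 3.28% passed in that direction. The smallest p-values were those of *Cd9*, a tetraspanin of the platelet surface, *Nrgn*, *Gp5*, a chain of the von Willebrand factor receptor, *Treml1* and *Selp*, which encodes P-selectin, a granule protein. *Cd9* measured 258, 302 and 273 CPM in *Rpl22*-/- HSCs, against 169, 178 and 141 CPM in *Rpl22*+/+ HSCs, which is 0.77 as log2 fold change (standard error 0.0994, adjusted p = 0.000872 in the edgeR fit). *Nrgn*, *Gp5*, *Treml1* and *Selp* rose by 0.61, 0.77, 0.78 and 0.81 as log2 ratios (adjusted p = 0.00229, 0.00237, 0.00441 and 0.00465). Each of these 5 passed in all 14 other ways of processing, and for each of them the genotypes did not overlap. The count of calls was 13 without *Rpl22*-/- replicate 1 and 10 without *Rpl22*-/- replicate 2 or 3. It was 8, 12 and 8 without *Rpl22*+/+ replicate 1, 2 and 3, and none of the calls in any of these fits was lower. In the same order of fits, 12.1%, 2.59%, 0.892%, 1.44%, 1.82% and 1.69% of all genes passed in either direction. Reads on genes of this list differed widely in number. *Gp6* had 0 in all 6 libraries, *Clec1b* 14 to 53 per library and *Tubb1* 20 to 45. *Gp9* had 205 to 397, *Pf4* 761 to 2941, *Vwf* 1915 to 4042 and *Itga2b* 3712 to 8074. Of these, *Itga2b* rose by 0.51, *Gp9* by 0.46 and *Pf4* by 0.70 as log2 ratios (adjusted p = 0.0115, 0.0477 and 0.0484 in the edgeR fit), the genotypes overlapping for *Pf4*. *Vwf*, *Tubb1* and *Clec1b* had 0.34, 0.21 and 0.20 and did not pass (adjusted p = 0.116, 0.787 and 0.824).

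**Figure D4:**
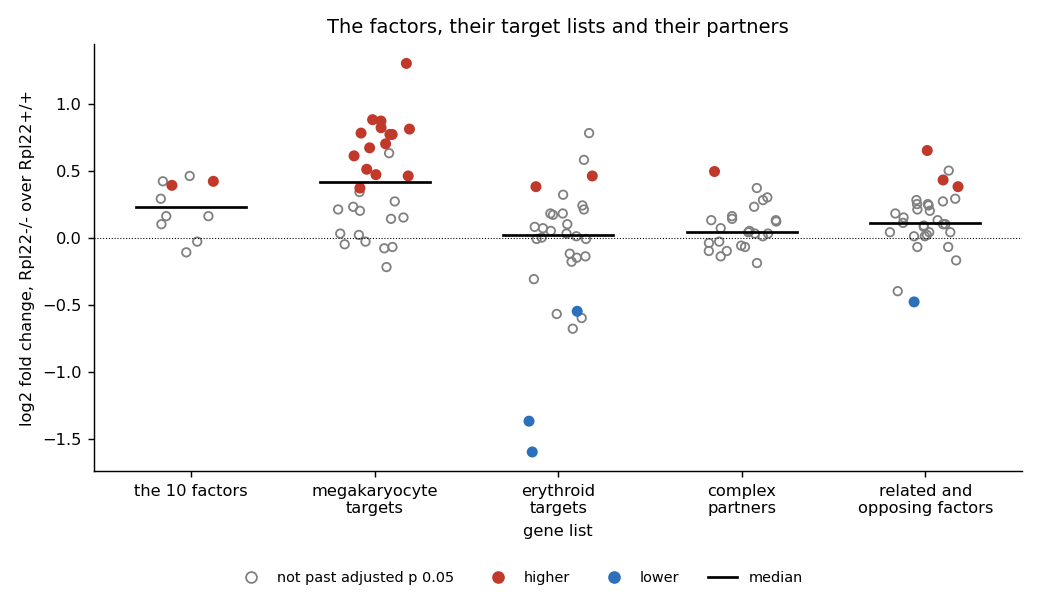
Log2 fold changes, *Rpl22*-/- over *Rpl22*+/+, of the 10 factors and of the tested genes of 4 lists, as 1 point per gene with the list's median as a bar (horizontal spread has no meaning), filled where the adjusted p is below 0.05. All 15 filled points of the megakaryocyte list lie above 0, while the erythroid list has 2 above and 3 below, the lowest at -1.60.

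The erythroid list moved in both directions. Of 44 genes listed, 39 were in the table and 30 tested, of which 2 rose and 3 fell, with a median log2 fold change of 0.021. *Tfrc*, the transferrin receptor that brings iron into erythroblasts, measured 58.5, 48.9 and 54.4 CPM in *Rpl22*-/- HSCs, against 78.7, 86.3 and 71.1 CPM in *Rpl22*+/+ HSCs, and fell by 0.55 on the log2 scale (standard error 0.0991, adjusted p = 0.00753 in the edgeR fit). *Car1*, a carbonic anhydrase of red cells, and *Ermap*, a red cell membrane protein, fell by 1.37 and 1.60 (adjusted p = 0.0246 and 0.0359), on 32 to 167 and 9 to 61 reads per library, and for *Car1* the genotypes overlapped. *Bcl2l1*, which protects erythroblasts from death, rose by 0.46 (adjusted p = 0.0470). The 5 calls are 16.7% of the 30, beside 5.57% of all genes in either direction, but without *Rpl22*-/- replicate 3 there were 0, without *Rpl22*-/- replicate 2 or *Rpl22*+/+ replicate 1 or 2 there was 1, and without *Rpl22*+/+ replicate 3 there were 2, in fits where 0.892% to 2.59% of all genes passed. Without *Rpl22*-/- replicate 1 there were 5, where 12.1% of all genes passed. *Tfrc* passed in 13 of the 14 other ways of processing.

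Other cells were followed by their markers, although the study's antibodies to Gr-1, CD11b, B220, Ter119 and CD3 are meant to remove neutrophils, macrophages, B cells, erythroblasts and T cells before the sort. For erythroblasts, 12 markers in the table, all of them in the erythroid list too, summed to 114 to 123 CPM in *Rpl22*-/- HSCs, against 109 to 121 CPM in *Rpl22*+/+ HSCs, and *Slc4a1*, *Alas2*, *Hba-a1* and *Hba-a2* had at most 18 reads in any library. *Hemgn* alone made up 60.4 to 82.5 CPM of the sum over the 6 libraries. Of 7 markers tested, 2 passed, *Car1* and *Ermap*, and both fell, beside 2.29% of all genes in that direction. The beta globin gene *Hbb-b2* had 88, 87 and 74 reads in *Rpl22*-/- HSCs, against 21, 60 and 50 in *Rpl22*+/+ HSCs, without overlap and with a log2 fold change of 0.78 (adjusted p = 0.164 in the edgeR fit), and its near copy *Hbb-b1* had 9 to 25 reads per library and 0.32 (adjusted p = 0.710), reads that counting may split between the copies. For mast cells and basophils, where *Gata2* and *Gata1* are also active, the 13 markers summed to 30.2 to 30.9 against 31.4 to 38.8 CPM, and *Tpsb2*, *Cma1* and *Mcpt4* were at 0 in all 6 libraries. For eosinophils, another cell of high *Gata1*, 9 markers summed to 3.12 to 3.57 against 3.64 to 4.17 CPM, with *Epx*, *Prg3* and *Ear6* at 0. The mast cell and basophil genes with the smallest p-values were *Csf2rb2* (log2 fold change -0.61, adjusted p = 0.0900 in the edgeR fit) and *Cpa3* (0.32, 0.408), and the one eosinophil gene tested was *Siglecf* (0.03, 0.969), so that none of these passed and 1 of the 4 had an unadjusted p below 0.05. The 14 megakaryocyte markers summed to 1300 to 1550 CPM in *Rpl22*-/- HSCs, against 895 to 1160 CPM in *Rpl22*+/+ HSCs, all 14 of which also stand in the list of megakaryocyte targets, and of 13 tested 9 rose, led by *Gp5*, *Treml1*, *Selp*, *Gp1bb* and *Itga2b*. These 9 of 13 stand beside 3.28% of all genes in that direction. The sum of the 14 was higher in *Rpl22*-/- HSCs, as *Gata2* and *Zfpm1* were. By replicate it was 1550, 1480 and 1300 CPM in *Rpl22*-/- HSCs, against 945, 1160 and 895 CPM in *Rpl22*+/+ HSCs. In the same order *Gata2* was at 454, 462 and 520 against 364, 357 and 372 CPM. *Zfpm1* was at 327, 402 and 342 against 265, 286 and 248 CPM. With 3 libraries per genotype no conclusion is drawn from their order. The part of the megakaryocyte markers in the levels of the factors was not tested.

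Of the 13 neutrophil markers 10 were tested, and *Ctsg* and *Camp* rose, by 2.85 and 2.43 as log2 ratios (adjusted p = 0.0282 and 0.0291 in the edgeR fit), on at most 163 and 47 reads in a library. These 2 of 10 stand beside 3.28% of all genes in that direction. Each passed in 2 of the 6 fits with 1 library left out, without *Rpl22*-/- replicate 1 for both, *Rpl22*+/+ replicate 3 for *Ctsg* and *Rpl22*+/+ replicate 1 for *Camp*. *Ctsg* ran from 1.71, without *Rpl22*-/- replicate 2, to 3.86, and *Camp* from 1.98, without *Rpl22*-/- replicate 3, to 3.30. The sum of the 13 was 227 CPM in *Rpl22*-/- replicate 2, which also had 1218 reads on *Mpo*, and 66.9 to 110 CPM in the other 5 libraries. Without that library the log2 fold change of *Gata2* was 0.42 and passed, while those of *Zfpm1*, *Fli1*, *Gfi1b* and *Gata1* were 0.33, 0.40, 0.34 and 0.29 and did not. Of the factors that did not, *Zfpm1* alone had passed with all libraries in. It also missed without *Rpl22*-/- replicate 3 or any *Rpl22*+/+ library. In the fit without *Rpl22*-/- replicate 2, 2.59% of all genes passed, beside 5.57% with all libraries. The macrophage markers summed to 48.6 to 61.8 against 37.3 to 50.3 CPM, and *Cd163* rose by 0.53 (adjusted p = 0.0344). It was the 1 call among 4 tested, beside 3.28% of all genes in that direction. B cell markers summed to 27.6 to 30.9 against 25.1 to 26.5 CPM and T cell markers to 13.8 to 16.9 against 13.6 to 15.7 CPM, with no call in either list. Their smallest p-values belonged to *Cd79b* (log2 fold change 0.29, adjusted p = 0.166 in the edgeR fit), *Vpreb1* (-0.17, 0.824), *Lck* (0.34, 0.259) and *Cd4* (-0.44, 0.359), of which *Cd79b* alone had an unadjusted p below 0.05. Of the 15 HSC markers, *Fgd5* fell by 0.41 (adjusted p = 0.0308), and the list summed to 3030 to 3270 against 3320 to 3410 CPM. *Fgd5* was the 1 call among the 15, beside 2.29% of all genes in that direction. For summed levels whose ranges do not overlap, an exact two-sided permutation test of 3 against 3 cannot give less than 0.1.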

How the data were processed

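HSCs were sorted into TriReagent and libraries of polyadenylated RNA were made with a TruSeq kit that is not stated to keep strand. The authors checked reads with FastQC, aligned them to mm10 with TopHat2 2.1.1 (per the submitters' processing notes) and deposited HTSeq read counts per gene, as whole numbers without normalization. The HTSeq settings and annotation are not given in the sources used here. The 58.6% to 60.9% of each library that HTSeq placed on no gene were left out, and 0 per-sample columns were left unused.

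From these counts, edgeR 4.0.16 (R 4.3.3) kept 14004 of 34573 genes (filterByExpr, minimum count 10), scaled them by TMM and compared *Rpl22*-/- with *Rpl22*+/+ by the quasi-likelihood test, with p adjusted by Benjamini-Hochberg over the genes kept and a threshold of 0.05. A standard error is the size of the log2 fold change divided by the root of its F value. Positions and exon lengths come from GENCODE vM21 (GRCm38), which gave a length for 89.4% of genes and 95.4% of those tested. The 10 genes, the gene lists and the tests were chosen with earlier results of these data known. Besides the 10 factors and *Rpl22*, genes named are up to 5 calls with the smallest p of each list, or the 2 smallest p-values of a list without calls, and the 3 genes most like *Gata1*, and others are marked or serve as markers. Results for some genes within this rule are left out here. The alternatives were DESeq2 1.42.0, limma-voom (limma 3.58.1), relative log expression factors, scaling by library size only, no filter, 10 or more counts in all samples, omission of each library, a term for replicate number, and removal of each library's trends on gene length and GC content (lowess, span 0.3). With 3 libraries per genotype, each mean and SD rests on 3 values.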

Additional observations from a re-analysis of the deposited data

How the results depend on the processing

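Of the 10 factors, 2 passed as reported, 4 with DESeq2 and 4 with no filter on low counts, where *Fli1* and *Gfi1b* joined *Gata2* and *Zfpm1*, and 0 to 4 with 1 library left out. For complex partners, 1 passed as reported, 2 with DESeq2, 3 with no filter, 0 with length and GC trends removed and 0 to 3 with 1 library left out. For related and opposing factors the count was 4, and 0 to 5 with 1 library left out. For megakaryocyte targets it was 15, and 8 to 13 with 1 library left out. For erythroid targets it was 5, then 3 with limma-voom, 3 with length and GC trends removed and 0 to 5 with 1 library left out. The share of all genes called moved as well, from 5.57% as reported to 7.42% with DESeq2 and 6.89% with no filter. It was 5.3% with limma-voom, 3.56% with length and GC trends removed, and from 0.892% to 12.1% with 1 library left out. With 1 library left out the log2 fold change of *Tal1* ran from -0.07 to 0.02 and that of *Klf1* from -0.27 to 0.11, positive without *Rpl22*-/- replicate 2, and with length and GC trends removed that of *Lyl1* was -0.06, values of opposite sign to those reported, none past the threshold. The causes of these shifts were not tested.

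The labels do not say whether the replicate numbers pair the libraries. The correlation of same-numbered libraries' deviations from their genotype means over genes was -0.103, 0.0549 and 0.0448. For differently numbered libraries it ran from -0.171 to 0.132. No pairing was visible in these values, but they cannot exclude one. With the replicate block 3 factors passed (*Gata2*, *Zfpm1* and *Fli1*) and 2 complex partners, and 904 genes in all against 780. Among the 10 factors *Klf1*, on fewer than 100 reads in each library, had the widest interval.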

Other observations

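The genes whose deviations from their genotype means were most like those of *Gata1* over the 6 libraries were *Grb10*, *Nampt* and *Zfp202*, found among 10645 other genes with an average log2 CPM of at least 3. They are given as a description, since so few libraries leave many genes with close patterns. Their own log2 fold changes were -0.02, 0.13 and 0.12, none past the threshold.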
